A study of Rattus norvegicus with 6 samples.

Results

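The genes described here are the core and regulatory protein genes of pre-mRNA splicing whose symbols begin with Hnrnp, Snrp, Sf3a or Sf3b, together with the numbered Srsf genes. They were picked by symbol alone, with no measured value in the rule, but with earlier results of these data known. They came to 52 of the 29468 gene symbols in the tables. They fell into 18 heterogeneous nuclear ribonucleoprotein (hnRNP) genes, 14 genes of Sm and other small nuclear ribonucleoprotein (snRNP) proteins, 11 SR protein genes and 9 subunits of splicing factor 3 (SF3). RNA came from 3 samples of Schwann cell precursors (SCPs) and 3 of repair Schwann cells (RSCs), all labelled as from wild type LEWIS rats. SCPs were taken from sciatic nerves and brachial plexus at embryonic day 14 without treatment. RSCs were taken from the distal part of cut sciatic nerves of 10 week old rats, 1 week after the cut. Both preparations were dissociated with enzymes before RNA was extracted. According to the study's methods, the suspensions were then plated briefly on bare plastic and the floating cells kept, to deplete fibroblasts and macrophages that stick to it, and no sort by a marker is named. The methods also describe the grafted cells as coming from LEWIS rats with a red fluorescent protein transgene and treat grafting and RNA extraction together, so whether the RNA came from wild type or transgenic rats is not settled by the sources used here. Age, injury and tissue source all differed between the groups and cannot be told apart.

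Splicing removes introns from pre-mRNA. It is carried out by the spliceosome, which is built from snRNPs, each a small nuclear RNA carrying a ring of Sm proteins and proteins of its own. The SF3A and SF3B subunits belong to the U2 snRNP, which recognises the branch point. SR proteins bind exons and mostly favour the use of nearby splice sites, whereas hnRNPs coat nascent transcripts and often oppose it, and many members of both families also act in export, stability or translation of mRNA. Genes of this machinery are expressed in nearly every cell type.

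Because most of these genes moved in the same direction, the upstream sequences of 1 abundant gene of each family are shown for orientation, the one with the highest mean FPKM as listed. Among hnRNPs that was Hnrnpa2b1, although Hnrnpa1, which has no estimate in SCP1, was higher than it in SCP2 and SCP3. RefSeq start regions on the GRCr8 build were found for 48 of the 52 genes, and none was used for Sf3b2, Snrpd2l, Hnrnpll and Snrpc-ps1. The expression tables use another build, rn6, so these positions are not those of the tables. Each line gives the 250 bases before the annotated start, 5′ to 3′ along the gene, with every match to 1 of 5 promoter motifs on either strand in capitals. The motifs searched were an ETS-type site (CCGGAAG), an NRF1-type site (GCGCATGC), the GC box (GGGCGG), the CCAAT box (CCAAT) and the TATA box (TATAAA), and matches of the GC box may overlap each other.
Hnrnpa2b1 (GRCr8 chr4:81875887-81876136, minus strand): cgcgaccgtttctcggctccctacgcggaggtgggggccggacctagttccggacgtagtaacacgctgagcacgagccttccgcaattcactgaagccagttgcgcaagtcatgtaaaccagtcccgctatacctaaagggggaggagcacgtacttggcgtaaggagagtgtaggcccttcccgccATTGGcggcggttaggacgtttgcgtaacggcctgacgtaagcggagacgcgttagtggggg
Srsf2 (GRCr8 chr10:102554142-102554391, minus strand): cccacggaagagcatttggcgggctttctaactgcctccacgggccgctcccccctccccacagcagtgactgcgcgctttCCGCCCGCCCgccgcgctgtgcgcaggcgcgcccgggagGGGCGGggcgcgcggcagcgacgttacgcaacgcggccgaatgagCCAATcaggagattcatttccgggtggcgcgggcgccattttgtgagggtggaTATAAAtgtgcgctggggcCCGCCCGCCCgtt
Snrpd2 (GRCr8 chr1:87926159-87926408, plus strand): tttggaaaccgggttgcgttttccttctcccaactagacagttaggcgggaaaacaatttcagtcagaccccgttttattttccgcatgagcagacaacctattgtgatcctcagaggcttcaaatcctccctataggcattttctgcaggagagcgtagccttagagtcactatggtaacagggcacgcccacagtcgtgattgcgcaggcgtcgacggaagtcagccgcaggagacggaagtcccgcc
Sf3b5 (GRCr8 chr1:9176939-9177188, plus strand): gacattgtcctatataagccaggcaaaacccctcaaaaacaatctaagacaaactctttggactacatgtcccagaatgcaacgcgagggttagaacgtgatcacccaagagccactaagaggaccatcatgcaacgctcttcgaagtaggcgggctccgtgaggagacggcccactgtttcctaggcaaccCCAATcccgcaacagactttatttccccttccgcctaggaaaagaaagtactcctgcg

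The 4 sequences had little in common in these letters. Srsf2 held 7 matches, among them a TATA box that began 32 bases before the start and a CCAAT box that began 85 bases before it. Hnrnpa2b1 had a CCAAT box on the opposite strand at 62 bases before the start, Sf3b5 had one at 58 bases before it, and Snrpd2 had no match. Over windows of 300 bases that also include the start of the transcript, the CCAAT letters were present in 27 of the 48 genes (56.2%), against 37.5% of all 33469 windows in the table. The ETS-type letters were present in 14 genes (29.2%, against 8.75% of all windows), among them Sf3a1, Sf3a2, Sf3a3, Snrpb, Snrpd1, Snrpe, Snrpg and Srsf7. The GC box was present in 29 genes (60.4% against 33.1%), the TATA box in 7 (14.6% against 14.2%) and the NRF1-type site in 3 (6.25% against 2.47%). All windows include those of genes with no RNA in these samples. A gene was counted if any of its windows held the letters, while the share of all windows counts each window by itself. These shares are therefore not alike, and genes with several windows raise only the first. Of the genes tested below, 67.6% had a window, a smaller part than of the splicing genes. Counted by gene in the same way, these held the GC box in 64.4%, the CCAAT box in 38.7% and the ETS-type site in 17.9%. The TATA box was in 7.35% of them and the NRF1-type site in 5.28%. By that count the GC box was no more frequent in the splicing genes. These are matches of letters, and binding was not measured.

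Expression was given as FPKM, the mapped fragments of a transcript corrected for its length and for sequencing depth. It is relative to all mapped fragments of a sample, so a few very abundant RNAs lower all other values there. Levels in SCPs and RSCs are compared with that limit, as erythroid RNA differed widely between the groups (given below). The FPKM of all named transcripts of a gene were summed. A second sum also took in the transcripts without a gene name that were assembled from each sample's own reads and lay over the gene under the same gene identifier. SCPs and RSCs were compared with limma on log2(FPKM + 1), so that folds of weakly expressed genes are understated, and genes averaging 1 FPKM or more over the 6 samples were tested. A gene was called at an unadjusted p under 0.01. The study's definition of a differentially expressed gene used this p together with a 4-fold minimum, which is counted separately below. The limma p-values printed are those adjusted by Benjamini-Hochberg over all genes tested. Log2 fold changes are RSC minus SCP with their standard error, so a negative value means a higher level in SCPs. Values are mean ± SD with n = 3 per group.

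The samples differed in ways that touch these genes. Relative depth, read from the coverage per FPKM, ran from 0.878 to 1 in SCPs and from 0.790 to 0.841 in RSCs. Unnamed transcripts held 26.1 to 31.9% of all FPKM in SCPs and 18.6 to 23.4% in RSCs. In SCP1 all 4 Hnrnpa1 transcripts carried the status FAIL, meaning that their level could not be estimated, and they are listed at 0 there. These were the only failed transcripts of any of the 52 genes. Hnrnpa1 is therefore given with and without SCP1. The 3 samples of a group are separate preparations by their labels, and nothing says which animals they came from, so p-values measure the spread between these samples.

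Splicing factor and hnRNP genes were expressed at higher levels in SCPs than in RSCs nearly throughout. Of the 50 genes tested, 39 were higher in SCPs at p under 0.01, which is 78% of them, against 22.4% of all 13003 genes tested. None was higher in RSCs by limma, at p under 0.01 or at an unadjusted p under 0.05, against 18.1% of all genes at p under 0.01. A difference over 2-fold with p under 0.01 was found in 30 genes, all higher in SCPs (13.9% of all genes). No gene passed 4-fold in the fit by either sum with all samples, so none met both thresholds by this fit. The study used Cuffdiff, without the 1 added here to FPKM. The mean FPKM of Srsf12, a weakly expressed gene that was called, was 4.29-fold higher in SCPs, while its fitted log2 fold change was -1.16. Hnrnpa1 passed 4-fold only without SCP1, as given below. Every SCP sample was above every RSC sample in 41 of the 50 genes, against 33.7% of all genes. The median log2 fold change was -1.23, compared with -0.17 over all genes tested. With adjusted p under 0.05 the count was also 39. Snrpn and Snrpc-ps1 were listed at 0 in every sample and were not tested.

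Adding the unnamed transcripts left the direction as it was and raised the count. With them, 42 of 50 genes were higher in SCPs (34.2% of the 14019 genes tested by that sum) and none was higher in RSCs (23.2% of all genes). The number over 2-fold was 29 (18.0% of all genes), and SCPs lay above RSCs in all samples for 47 genes (43.6% of all genes). The median was -1.10, against -0.24 over all genes. With adjusted p under 0.05, 46 genes were called.

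**Figure D1:**
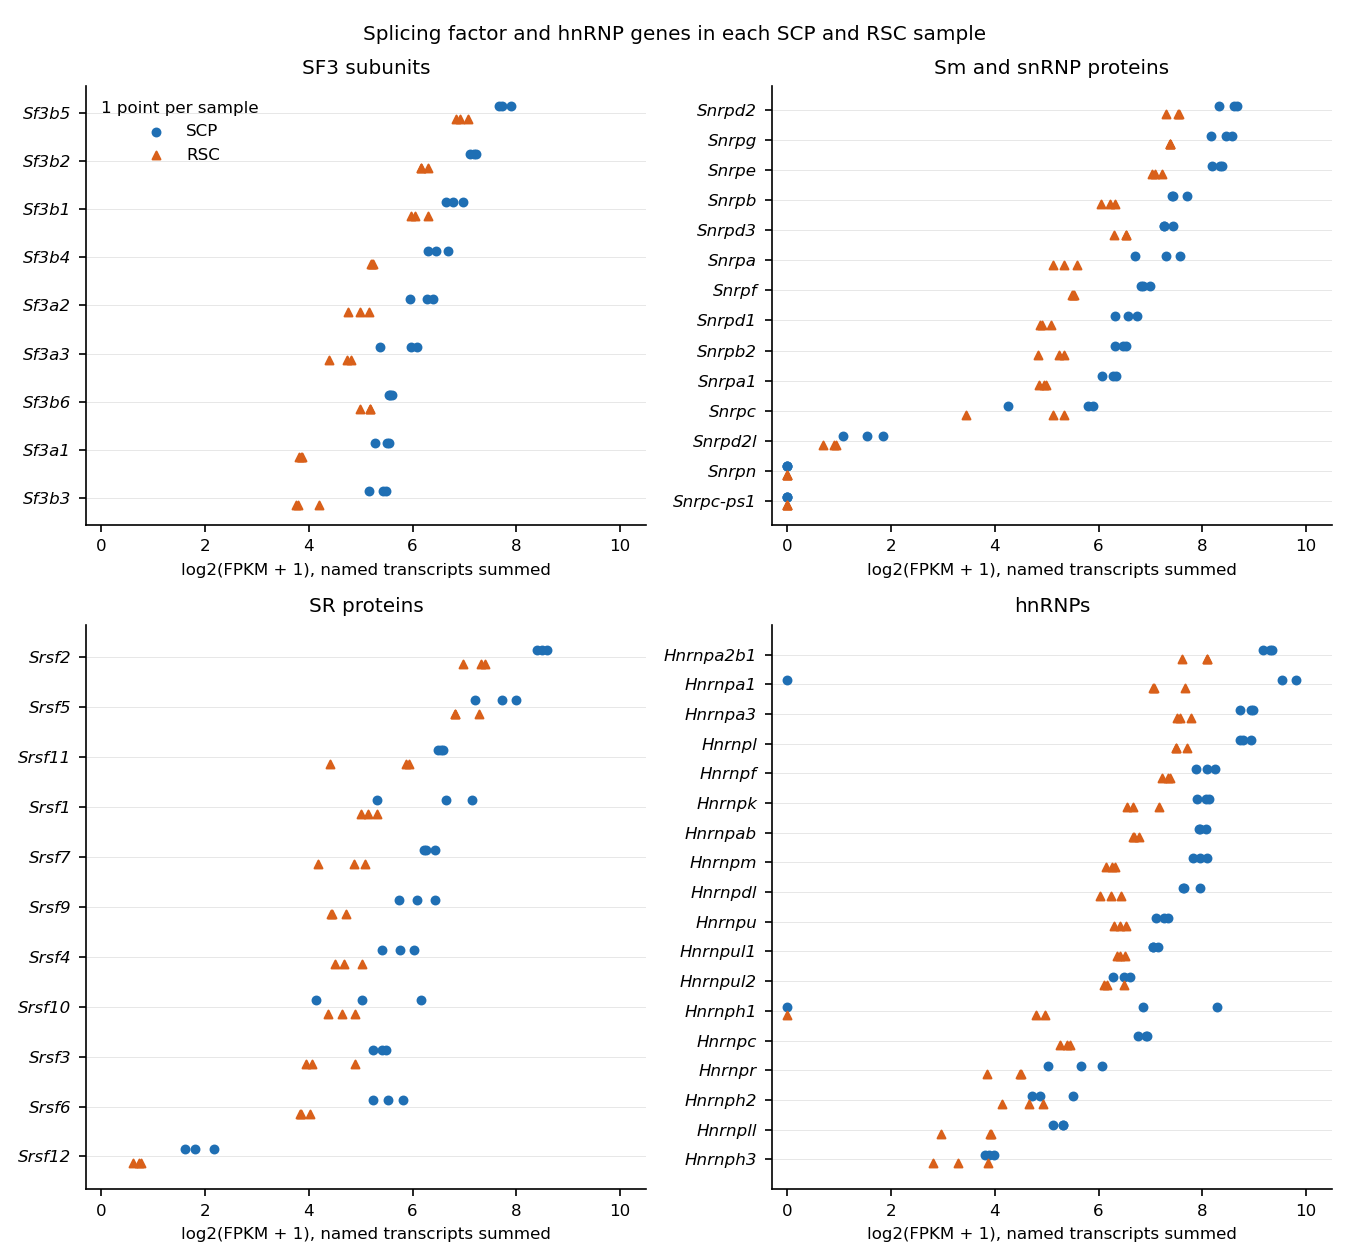
Level of each of the 52 genes in every sample, as log2(FPKM + 1) of the summed named transcripts, with circles for the 3 SCP samples and triangles for the 3 RSC samples, in 1 panel per family. SCP points lie to the right of all RSC points in 41 of the 50 tested genes, and the SCP1 point of Hnrnpa1 and points of Hnrnph1 sit at 0.

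Summed over all 52 genes, the named transcripts came to 8141, 8289 and 7350 FPKM in SCPs and to 3434, 3157 and 3691 FPKM in RSCs. The SCP1 sums here lack Hnrnpa1, which had no estimate there and gave 900 FPKM in SCP2 and 746 FPKM in SCP3. The SCP means, SDs and ratios of all genes and of hnRNPs carry that gap. All SCP sums lay far above all RSC sums, and the ratio of the means was 2.31 (exact permutation p = 0.1, two-sided, the smallest that 3 against 3 samples allow). These genes took 1.43 ± 0.21% of all named FPKM in SCPs and 0.67 ± 0.04% in RSCs. By family, the ratio of summed FPKM was 2.44 for hnRNPs, 2.29 for Sm and snRNP proteins, 2.197 for SR proteins and 1.97 for SF3 subunits. With unnamed transcripts added the total was 9196 ± 310.4 FPKM in SCPs and 4099 ± 112 FPKM in RSCs, a ratio of 2.24. In bulk RNA, fewer cells with high levels and less RNA per cell cannot be told apart.

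The order of the genes by level was alike in both groups. Leaving out Hnrnpa1, Spearman's rho between the SCP and RSC means was 0.93 across 49 genes, and 0.95 with unnamed transcripts added. This is a description across genes that share the same libraries and transcript lengths. The middle part of the distribution was narrow, with a lower quartile of -1.39 and an upper quartile of -0.82 on the log2 scale. The ratio of SCP to RSC mean FPKM had a median of 2.39 and ran from 1.15 for Hnrnpul2 to 4.29 for Srsf12, apart from 7.48 for Hnrnph1, whose named transcript is listed at 0 in SCP3 and RSC2. With unnamed transcripts added, the ratio of Hnrnph1 was 3.24, the median was 2.24 and the range ran from 1.18 to 4.29.

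**Figure D2:**
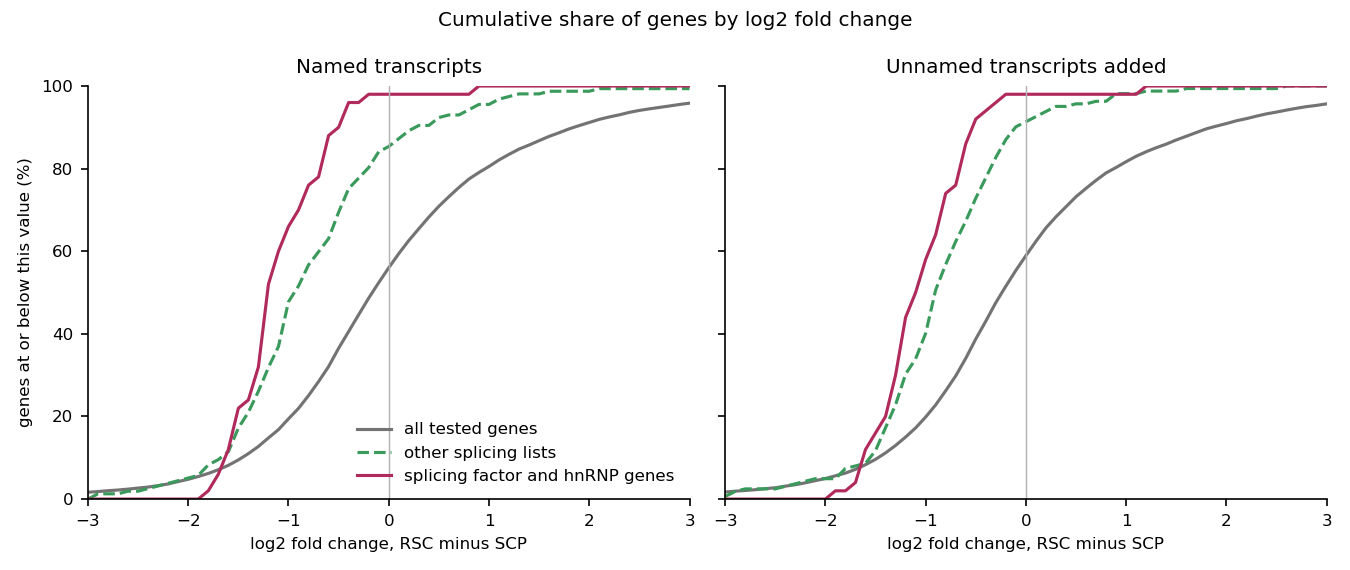
Cumulative share of genes (%) at or below each log2 fold change (RSC minus SCP) for all tested genes, for 5 other lists of splicing genes and for the splicing factor and hnRNP genes, with named transcripts on the left and unnamed transcripts added on the right. The curve of the splicing factor and hnRNP genes lies above that of all genes from -1.6 to 3, the right edge, with medians of -1.23 and -0.17 for named transcripts.

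Among the SF3 subunits, which hold the U2 snRNP at the branch point, all 9 genes were higher in SCPs at p under 0.01 by both sums, with a median log2 fold change of -1.17 (named) and -0.97 (unnamed added). SCP samples lay above RSC samples for each of the 9. By name, 22.4% of all genes tested were higher in SCPs at p under 0.01, and 33.7% had every SCP sample above every RSC sample. With unnamed transcripts added these shares were 34.2% and 43.6%. They stand beside the counts of each family below as well. The most abundant SF3 gene was Sf3b5, a small SF3B subunit (rn6 chr1:7101715-7102427), with 236, 202 and 210 FPKM in SCPs and 120, 113 and 132 FPKM in RSCs. Sf3b2, a large subunit that contacts the branch region, had 148, 145 and 137 FPKM in SCPs and 70.8, 70.6 and 77.4 FPKM in RSCs. In both genes the replicates were tight and the groups lay well apart, with log2 fold changes of -0.82 ± 0.09 (adjusted p = 0.0011) and -0.97 ± 0.07 (adjusted p = 0.00023).

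The largest difference of the family was in Sf3a1, the SF3A subunit with SURP domains (rn6 chr14:84393182-84413931). Its level was 44.2, 45.9 and 37.8 FPKM in SCPs against 13.1, 13.3 and 13.6 FPKM in RSCs, a log2 fold change of -1.60 ± 0.11 (adjusted p = 0.00015). Sf3b3, a scaffold subunit with beta-propellers, had 42.3, 43.7 and 34.9 FPKM in SCPs against 17.3, 12.4 and 12.9 FPKM in RSCs (log2 fold change -1.45 ± 0.16). The smallest difference was in Sf3b6, the subunit also known as p14 that lies close to the branch adenosine, with 45.5, 47.8 and 46.4 FPKM against 30.7, 35.1 and 35.2 FPKM (log2 fold change -0.46 ± 0.09, adjusted p = 0.0082). Without SCP2, or with median-of-ratios scaling, it was no longer called. Sf3a2, Sf3a3, Sf3b1 and Sf3b4 lay between, with log2 fold changes of -1.24, -1.17, -0.70 and -1.25. Sf3b1, the largest SF3B subunit, held 111 ± 12.8 FPKM in SCPs and 68.2 ± 8.7 FPKM in RSCs.

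Of the Sm and snRNP protein genes, 10 of the 12 tested were higher in SCPs by either sum, with medians of -1.24 and -1.20. The exceptions were Snrpc and Snrpd2l. The 7 Sm ring genes are Snrpb, Snrpd1, Snrpd2, Snrpd3, Snrpe, Snrpf and Snrpg, whose products form the ring around the snRNA. All 7 were higher in SCPs. Snrpd2 (rn6 chr1:80057140-80059990) was at 406, 392 and 320 FPKM in SCPs and at 186, 157 and 184 FPKM in RSCs. Snrpg was at 351, 380 and 288 FPKM in SCPs and at 164, 165 and 165 FPKM in RSCs, where the 3 replicates were almost the same. Snrpd1 was the lowest of the ring in all 6 samples, with 107, 94.2 and 78.4 FPKM in SCPs and 33.1, 29.0 and 28.3 FPKM in RSCs.

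The ring proteins are needed in equal number, but their mRNAs were not equal in level and did not differ between the groups by the same factor. The highest Sm ring gene exceeded the lowest 3.81 to 4.16-fold in the SCP samples and 5.64 to 6.49-fold in the RSC samples, so the ranges did not overlap, which was not tested. Snrpd1 had the largest log2 fold change of the ring, -1.59 ± 0.14 (adjusted p = 0.00035). Snrpd3 had the smallest, -0.87 ± 0.10 (adjusted p = 0.00085). Snrpf, with 127, 112 and 115 FPKM against 44.3, 44.9 and 43.9 FPKM, and Snrpb, with 208, 172 and 169 FPKM against 65.4, 79.0 and 73.2 FPKM, lay between at -1.39 ± 0.08 and -1.32 ± 0.12. Snrpe was at 314 ± 22.5 FPKM in SCPs and 138 ± 10.0 FPKM in RSCs.

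The proteins particular to the U1 and U2 snRNPs behaved much like the ring, with 1 exception. Snrpa, a U1 snRNP protein that binds the snRNA itself (rn6 chr1:83999670-84008427), had the largest log2 fold change of all genes called, -1.85 ± 0.25 (adjusted p = 0.0018). Its level was 189, 103 and 157 FPKM in SCPs against 33.7, 39.6 and 46.9 FPKM in RSCs. SCP2 was the lowest of the SCPs, and an unnamed transcript over the gene in that sample raised it to 129 FPKM and the log2 fold change to -1.95 ± 0.17. Snrpa1 and Snrpb2, the partner proteins of U2 snRNA, had 76.7, 79.7 and 65.7 FPKM against 30.7, 27.9 and 29.7 FPKM, and 88.0, 91.4 and 78.3 FPKM against 39.2, 27.7 and 36.8 FPKM. Both had a log2 fold change of -1.30, with standard errors of 0.10 and 0.15.

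Snrpc, a U1 snRNP protein that helps the particle pair with the splice donor, did not pass the threshold. Its named transcripts were at 58.8, 54.5 and 18.1 FPKM in SCPs and at 39.6, 9.92 and 34.0 FPKM in RSCs (log2 fold change -0.68 ± 0.66, adjusted p = 0.44). In SCP3 and RSC2, the low samples, unnamed transcripts held 73.9% and 83.4% of the FPKM over the gene. With them the values were 58.8, 54.5 and 69.3 FPKM against 39.6, 59.6 and 34.0 FPKM, and the groups still overlapped (log2 fold change -0.48 ± 0.21, adjusted p = 0.085). Snrpd2l, a gene with a name like that of Snrpd2 and a level near the filter, was at 2.59, 1.91 and 1.10 FPKM against 0.616, 0.864 and 0.916 FPKM (adjusted p = 0.11). How reads shared by near-identical copies were divided is not stated, so the level of Snrpd2l is uncertain. For Snrpn, the SmN gene known from neurons, the only value above 0 was an unnamed transcript of 3.94 FPKM in RSC3.

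The SR proteins were higher in SCPs for 7 of 11 genes by named transcripts and for 8 of 11 with unnamed transcripts added, with medians of -1.16 and -1.07. Srsf2, known as SC35 (rn6 chr10:105792779-105795985), was the most abundant. Its level was 382, 338 and 357 FPKM in SCPs and 125, 158 and 168 FPKM in RSCs (log2 fold change -1.26 ± 0.13, adjusted p = 0.0006). Srsf5, whose transcripts were listed on chromosomes 6 and 17, was at 211, 255 and 145 FPKM in SCPs and 112, 112 and 155 FPKM in RSCs, so the groups overlapped and it was not called (log2 fold change -0.67 ± 0.24, adjusted p = 0.064). Without SCP3, the lowest SCP, it was called at -0.89. With unnamed transcripts, Srsf5 was at 260, 307 and 233 FPKM against 170, 174 and 185 FPKM and was called (-0.58 ± 0.11, adjusted p = 0.0034).

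For several SR genes unnamed transcripts made up much of the RNA over the gene. They held 69.3 to 79.4% of the FPKM over Srsf3 and 53.8 to 70.6% over Srsf6, the larger part in every sample. Over Srsf7 they held 46.4 to 76.1%, the larger part in all samples except RSC1 and RSC3. These genes, like other SR genes, are known to regulate their own splicing through exons that lead to RNA decay, but whether the unnamed transcripts contain such exons was not tested. Srsf6 rose from 36.9, 45.3 and 55.0 FPKM by name to 124, 127 and 119 FPKM with unnamed transcripts in SCPs. In RSCs it went from 13.3, 13.1 and 15.1 FPKM to 45.4, 44.3 and 45.4 FPKM. The replicates drew together by the fuller sum, and the log2 fold change was -1.64 ± 0.17 by name (adjusted p = 0.00063) and -1.44 ± 0.07 with all transcripts (adjusted p = 8.6e-06).

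Srsf7, a zinc-knuckle SR protein, had 73.2, 84.9 and 75.9 FPKM against 28.2, 17.0 and 32.8 FPKM by name (log2 fold change -1.60 ± 0.24). With unnamed transcripts it had 234, 191 and 156 FPKM against 52.6, 70.9 and 61.9 FPKM (-1.62 ± 0.17), so both sums kept the groups apart. Srsf3, the smallest SR protein, was called by name (-1.08 ± 0.26, adjusted p = 0.018) and not with unnamed transcripts (-0.91 ± 0.32, adjusted p = 0.043). There RSC1, at 139 FPKM, came close to the SCPs at 161, 147 and 144 FPKM, while RSC2 and RSC3 were at 56.9 and 63.8 FPKM. The call by name was lost without any 1 of SCP1, SCP2, SCP3, RSC2 or RSC3.

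Srsf1, the founding SR protein also called ASF or SF2, was called only with unnamed transcripts added. By name it had 141, 99.5 and 38.7 FPKM in SCPs against 38.9, 34.3 and 31.2 FPKM in RSCs, and SCP3 fell within the RSC range (log2 fold change -1.21 ± 0.46, adjusted p = 0.077). Unnamed transcripts held 75.4% of the FPKM over the gene in SCP3 and 55.2% in RSC3. With them Srsf1 had 141, 125 and 157 FPKM against 38.9, 34.3 and 69.6 FPKM and was called (-1.61 ± 0.26, adjusted p = 0.0017). Without SCP3 the named transcripts gave -1.74. Srsf9 had 85.1, 66.5 and 52.5 FPKM against 20.6, 20.7 and 25.2 FPKM by name (-1.55 ± 0.19, adjusted p = 0.0014). With unnamed transcripts, found in RSC1 and RSC2 only, it was at 50.1, 38.8 and 25.2 FPKM in RSCs and was not called (-0.85 ± 0.28, adjusted p = 0.033). Srsf11 was not called by name (-1.14 ± 0.42), where RSC2 stood at 20.1 FPKM beside 60.2 and 57.3 FPKM, was called without RSC2 (-0.63), and was called with unnamed transcripts (-0.55 ± 0.09, adjusted p = 0.0021).

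Srsf10, an SR protein that acts as a repressor when dephosphorylated, had the largest SD relative to its mean in SCPs of the SR genes. It was at 70.4, 16.7 and 31.5 FPKM in SCPs and at 24.0, 28.5 and 19.5 FPKM in RSCs, and it passed the threshold by neither sum (log2 fold change -0.48 ± 0.50, adjusted p = 0.47 by name). Without SCP1 the log2 fold change was 0.046. Srsf4 was higher in SCPs by both sums, with log2 fold changes of -0.99 ± 0.21 and -1.07 ± 0.08, and its call by name was lost without SCP1, RSC1 or RSC3. Srsf12, the least abundant, was at 2.68 ± 0.76 FPKM in SCPs and 0.62 ± 0.10 FPKM in RSCs (adjusted p = 0.0098), and its call by name was lost without SCP1 or without RSC3.

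**Figure D3:**
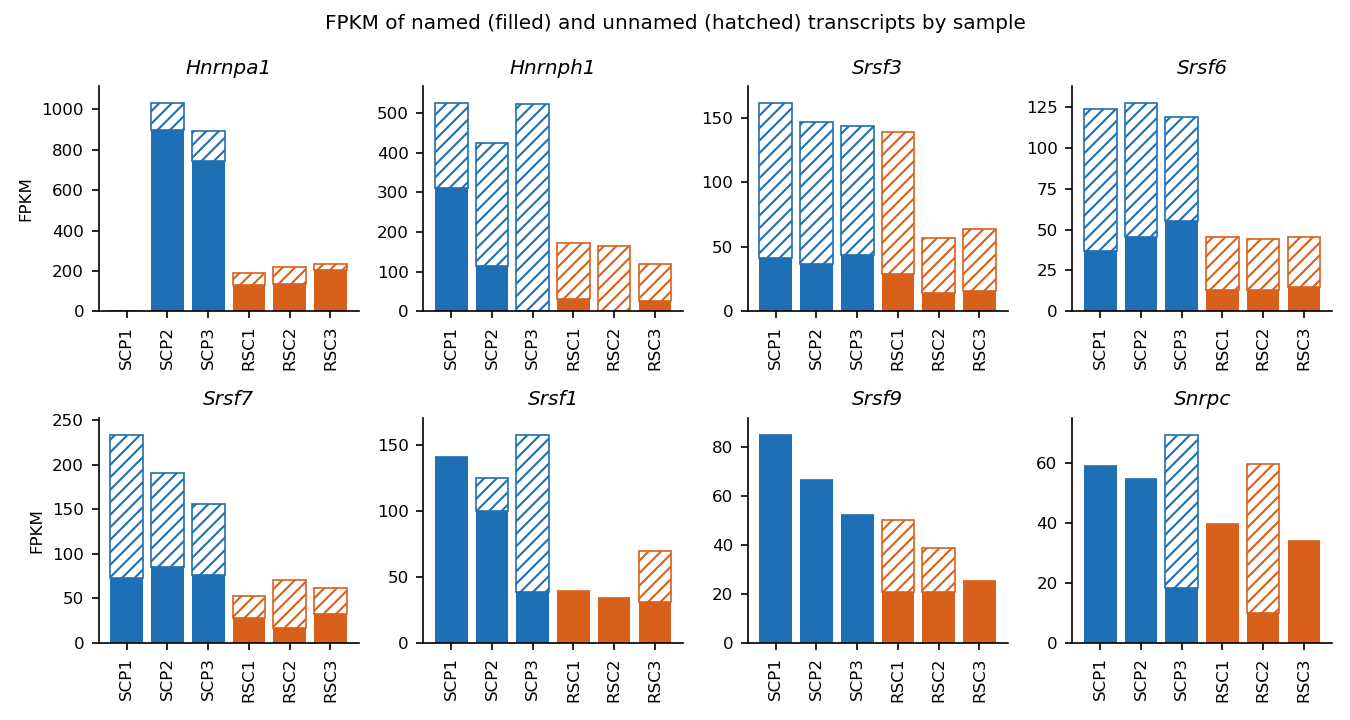
FPKM over 8 genes in each sample (blue for SCPs, orange for RSCs), with named transcripts filled and unnamed transcripts hatched on top, on axes that start at 0. Unnamed transcripts carry most or all of Hnrnph1 in every sample but SCP1, and most of Snrpc in SCP3 and RSC2. They are the larger part of Srsf3 and Srsf6 in every sample, and of Srsf7, Srsf1 and Srsf9 in some. Hnrnpa1 has no value in SCP1.

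Of the 18 hnRNP genes, 13 were higher in SCPs by named transcripts and 15 with unnamed transcripts, with medians of -1.26 and -1.11. Hnrnpa2b1, an A/B type hnRNP that binds RNA in the nucleus and in transport granules (rn6 chr4:81237496-81241281), had the highest mean of the 52 genes over the 6 listed values. Hnrnpa1, described next, was higher in SCP2 and SCP3. Hnrnpa2b1 had 635, 649 and 574 FPKM in SCPs against 273, 195 and 273 FPKM in RSCs (log2 fold change -1.34 ± 0.15, adjusted p = 0.0009). With unnamed transcripts, present in all 6 samples, the values were 956, 870 and 811 FPKM against 362, 319 and 352 FPKM, and the log2 fold change was much the same, at -1.35 ± 0.09.

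Hnrnpa1, its close relative and an antagonist of SR proteins at many exons (rn6 chr7:144865302-144871592), was the only gene with a positive log2 fold change, and it rested on the failed value in SCP1. It was listed at 0, 900 and 746 FPKM in SCPs and at 131, 133 and 202 FPKM in RSCs, so the SCP samples stood on both sides of the RSCs. With all samples the log2 fold change was 0.81 ± 2.66 (adjusted p = 0.83). Without SCP1 it was -2.42 ± 0.23 and passed the threshold, a larger difference than in any gene called with all samples. With unnamed transcripts, of which SCP1 again had none, it was at 0, 1030 and 891 FPKM against 191, 218 and 236 FPKM.

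Hnrnph1, which binds G-rich stretches of RNA, could be read only from the fuller sum. Its named transcript (rn6 chr10:35872619-35879911) was at 311, 114 and 0 FPKM in SCPs and at 30.1, 0 and 26.7 FPKM in RSCs (log2 fold change -1.79 ± 2.50, adjusted p = 0.59). Unnamed transcripts held 40.8 to 100% of the FPKM over the gene, and all of it in SCP3 and RSC2. With them the values were 524, 423 and 523 FPKM in SCPs against 172, 164 and 119 FPKM in RSCs. The groups were then well apart, with a log2 fold change of -1.70 ± 0.16 (adjusted p = 0.00016). Hnrnph2, on chromosome X, also passed the threshold only with unnamed transcripts (43.0 ± 1.74 against 27.6 ± 1.95 FPKM, log2 fold change -0.62 ± 0.09), while Hnrnph3 passed by neither sum (-0.57 ± 0.28 and -0.38 ± 0.39) except without RSC1, where the named transcripts gave -0.84.

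Hnrnpm, which binds GU-rich intronic sites, was higher in SCPs with 272, 246 and 225 FPKM against 78.3, 69.7 and 75.1 FPKM. No unnamed transcript lay over it, and its log2 fold change of -1.72 ± 0.10 (adjusted p = 7.2e-05) was the largest of any hnRNP called by name. Hnrnpll, known as a regulator of CD45 exon choice in lymphocytes, had 38.8, 33.7 and 38.9 FPKM against 6.75, 14.1 and 14.1 FPKM (-1.65 ± 0.28). With unnamed transcripts it had 43.3 ± 4.23 against 21.2 ± 3.37 FPKM, and its log2 fold change shrank to -1.003 ± 0.14. Hnrnpc, whose product measures transcript length as a tetramer, had 121, 119 and 107 FPKM against 40.9, 37.4 and 42.5 FPKM (-1.50 ± 0.09). Hnrnpdl had 249, 199 and 197 FPKM against 85.5, 64.6 and 74.3 FPKM (-1.51 ± 0.14).

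Hnrnpab, a relative of the A/B proteins, was at 270, 243 and 246 FPKM in SCPs and 102, 101 and 109 FPKM in RSCs (-1.27 ± 0.07, adjusted p = 8.1e-05). Hnrnpr had 65.7, 31.4 and 49.3 FPKM against 21.6, 21.5 and 13.4 FPKM, wide among the SCPs, and its call by name (-1.30 ± 0.32, adjusted p = 0.018) was lost when any 1 sample except SCP2 was left out. With unnamed transcripts it was -1.22 ± 0.14 (adjusted p = 0.00038). Hnrnpa3, Hnrnpl and Hnrnpk lay close to the median, at -1.27, -1.25 and -1.24. Hnrnpu, a scaffold protein of chromatin, Hnrnpf and Hnrnpul1 differed less, at -0.82, -0.77 and -0.66, and were called by both sums. By its highest transcript alone Hnrnpul1 was not called (-0.32).

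The smallest difference of any gene without a listed 0 was in Hnrnpul2, with 96.2, 76.6 and 88.7 FPKM in SCPs and 67.5, 70.3 and 89.1 FPKM in RSCs. The groups overlapped, and it passed the threshold neither by name (log2 fold change -0.21 ± 0.14, adjusted p = 0.28) nor with unnamed transcripts (-0.28 ± 0.09, adjusted p = 0.036). With median-of-ratios scaling its log2 fold change was 0.0059. That scaling moved the median of all genes from -0.17 to 0.02 and the median of the splicing genes to -1.03, so the splicing genes minus all genes came to -1.06 without and -1.05 with it.

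**Figure D4:**
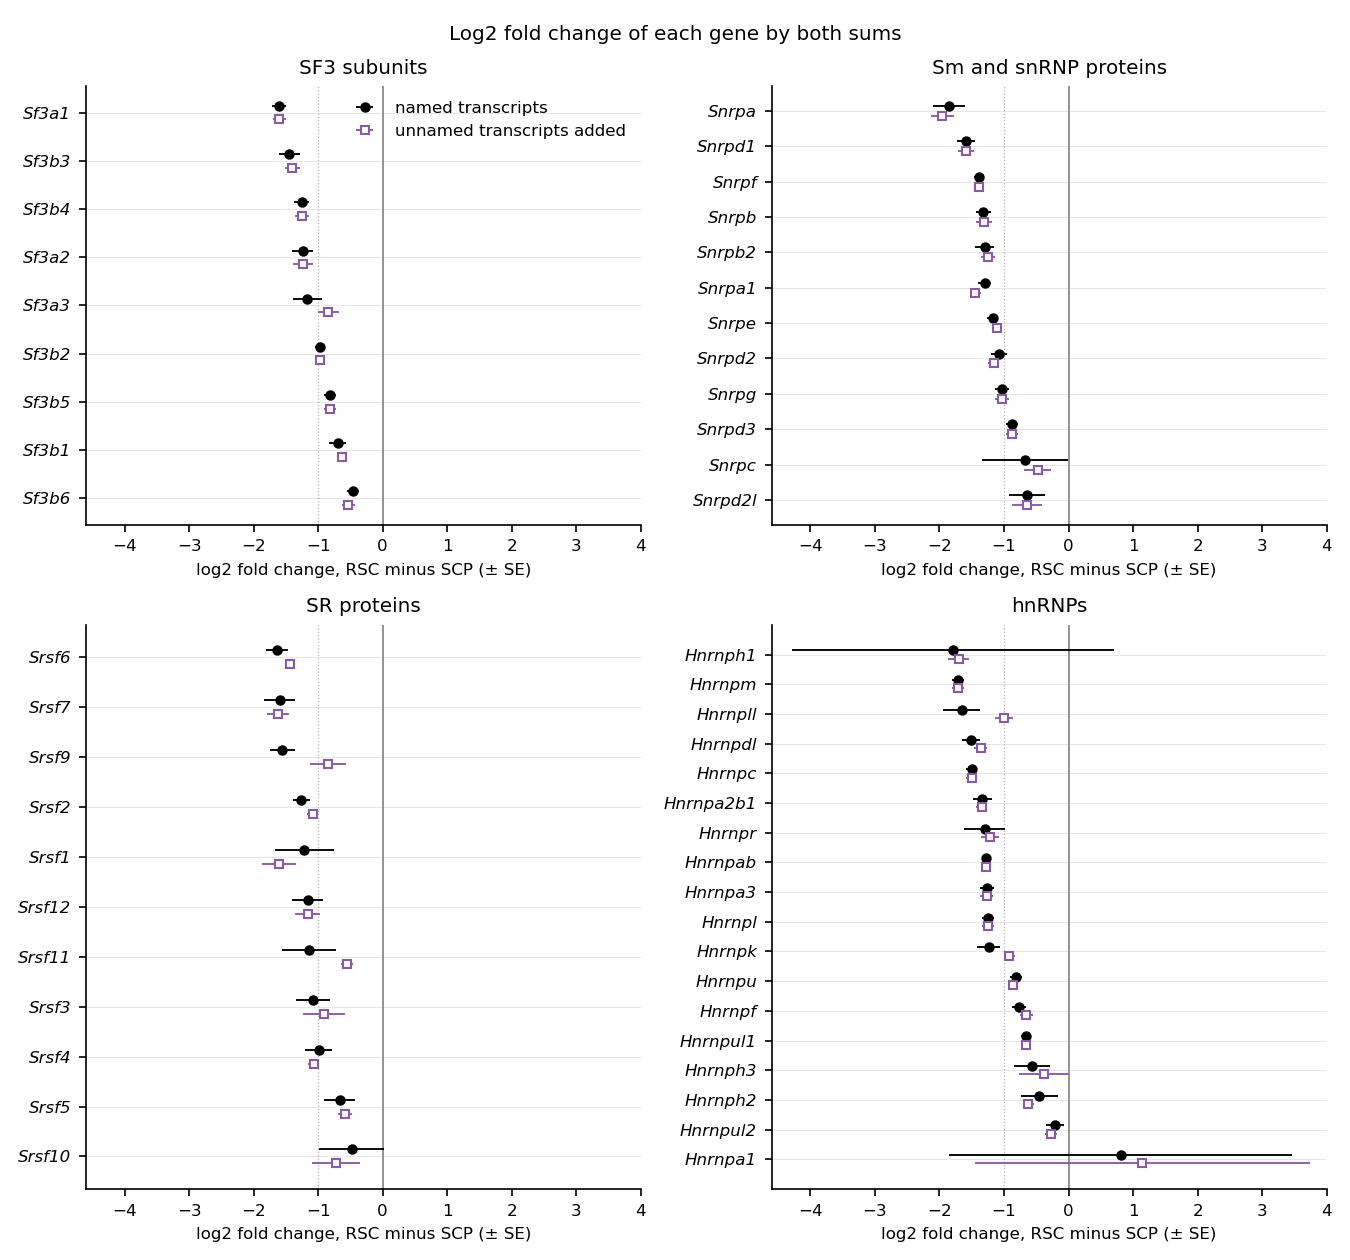
Log2 fold change (RSC minus SCP) of each tested gene with its standard error, by named transcripts (filled circles) and with unnamed transcripts added (open squares), in 1 panel per family and with a dotted line at -1. All points but those of Hnrnpa1 lie left of 0, and the widest bars belong to Hnrnpa1 and to the named sum of Hnrnph1, the genes listed at 0 in some samples.

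Across the 51 genes with any value above 0, 151 unnamed transcripts were assigned, 17 genes had none, and 6 (Hnrnpa2b1, Hnrnph1, Srsf3, Srsf5, Srsf6 and Srsf7) had some in all 6 samples. Over the 49 tested genes other than Hnrnpa1, adding the unnamed transcripts lowered the median coefficient of variation among replicates. It fell from 11.3% to 8.64% in SCPs and from 12.8% to 7.85% in RSCs.

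In 6 genes at least 2 named transcripts were above 0 in every sample and no unnamed ones lay over the gene, and shares are given here for 1 transcript each, one whose groups did not overlap where there was such a transcript. In Hnrnpab the 1592-base transcript held 61.6, 60.3 and 61.6% of the gene's FPKM in SCPs and 64.4, 66.8 and 65.5% in RSCs, and the other, of 1790 bases, held the rest. In Hnrnpc the 1703-base transcript held 19.5 ± 1.71% in SCPs and 25.05 ± 1.31% in RSCs. In Hnrnpul1 the 3746-base transcript held 34.6 ± 2.30% in SCPs and 43.2 ± 1.53% in RSCs, and its level was 45.5, 48.5 and 46.2 FPKM against 36.6, 35.8 and 38.2 FPKM. In each of these the groups did not overlap, which is how the transcript was picked. The other Hnrnpc transcript above 0 in every sample overlapped, at 26.1 ± 1.52 against 24.9 ± 1.19%. So did the other such Hnrnpul1 transcripts, at 27.6 ± 6.29 against 32.3 ± 12.2% and 15.9 ± 5.94 against 17.8 ± 3.75%. How often shares lie apart over all genes was not counted. For these transcripts the differences were of few percentage points, and no test at 3 against 3 samples can go below p = 0.1 by exact permutation. Transcripts listed at 0 in any sample are not among them. In Hnrnpc, the 1802-base and 1706-base transcripts were at 10.8, 10.6 and 8.57 FPKM and at 5.75, 8.01 and 12.1 FPKM in RSCs. Both were listed at 0 in every SCP sample. The 1750-base transcript was at 25.1, 24.3 and 20.2 FPKM in SCPs and was listed at 0 in every RSC sample. Shares in Hnrnpa3, Hnrnpl and Hnrnpm overlapped between the groups, at 76.4 ± 0.44 against 78.9 ± 2.13% for the 1154-base transcript of Hnrnpa3 and 72.5 ± 0.97 against 72.2 ± 3.03% for the 2074-base transcript of Hnrnpl. The 2353-base transcript of Hnrnpm held 65.1, 53.6 and 57.6% in SCPs and 58.7, 52.5 and 71.2% in RSCs. Cufflinks splits reads among transcripts by a model, and that error is not in these SDs.

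**Figure D5:**
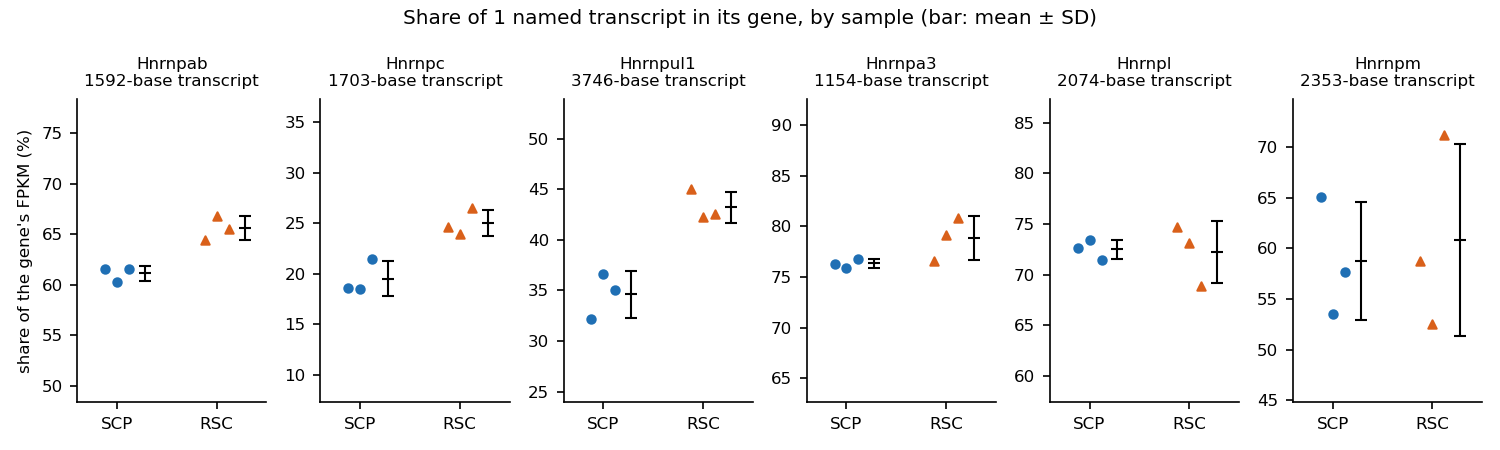
Share (%) of 1 named transcript in the FPKM of its gene for each SCP (circles) and RSC (triangles) sample, with mean ± SD beside the points, on axes that each span 30 percentage points and do not start at 0. The groups are apart for Hnrnpab, Hnrnpc and Hnrnpul1, where a transcript with groups apart was picked for display, and overlap for Hnrnpa3, Hnrnpl and Hnrnpm.

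Genes of 5 other splicing lists, which hold none of the 52, were also mostly higher in SCPs. These lists too were chosen with earlier results of these data known. Of their 157 genes tested, 88 were higher in SCPs (56.1%, against 22.4% of all genes tested) and 2 in RSCs (against 18.1% of all genes). Their median log2 fold change was -0.93. With unnamed transcripts it was 117 (72.2%) and 5 of 162, where 34.2% of all genes were higher in SCPs and 23.2% in RSCs. Of the core spliceosome genes, 46 of 77 were higher in SCPs and 1 in RSCs (median -0.93). Among those called, the largest differences by name were in Prpf39, a U1 snRNP factor (16.7, 40.9 and 23.7 FPKM in SCPs and 6.48, 5.60 and 3.17 FPKM in RSCs), and Luc7l3, another U1-associated factor. Lsm7, Bud31 and Aqr had larger log2 fold changes by name (-2.92, -2.45 and -2.23) but were not called. Each of them was listed at 0 in an RSC sample. Luc7l3 had 105 ± 3.62 FPKM in SCPs and 26.3 ± 3.26 FPKM in RSCs (log2 fold change -1.96 ± 0.11, adjusted p = 7e-05). Prpf39 differed by -2.16 ± 0.38 (adjusted p = 0.0053) by name. With unnamed transcripts it had 30.1, 40.9 and 39.5 FPKM against 14.9, 14.0 and 12.7 FPKM and differed by -1.34 ± 0.14, less than Luc7l3 at -1.86 ± 0.11. Snrnp35, a protein of the minor spliceosome's U11/U12 particle, was higher in RSCs, with 16.5 ± 2.99 FPKM against 8.44 ± 1.45 FPKM in SCPs (0.89 ± 0.19, adjusted p = 0.011), a call that was lost without RSC1 or RSC2 (0.76 and 0.93).

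Of the splicing regulators, 25 of 44 were higher in SCPs and 1 in RSCs by name (median -1.11), and 35 of 49 and 4 with unnamed transcripts. Over all genes tested, 22.4% were higher in SCPs and 18.1% in RSCs by name, and 34.2% and 23.2% with unnamed transcripts. These shares stand beside the lists below as well. Raver2, a partner of PTB, was at 6.95 ± 0.71 FPKM in SCPs and listed at 0 in every RSC sample. Khdrbs3, the STAR protein also called SLM2, was at 18.7 ± 8.52 FPKM in SCPs and 2.02 ± 0.64 FPKM in RSCs (-2.64 ± 0.36, adjusted p = 0.0019). Rbm47 was the 1 regulator higher in RSCs by name, at 2.74 ± 0.51 FPKM against 0.24 ± 0.06 FPKM (1.58 ± 0.22, adjusted p = 0.0023). With unnamed transcripts Celf2 (0.81 ± 0.20), Celf4 (2.55 ± 0.19) and Mbnl2 (1.20 ± 0.09) were also higher in RSCs. Among the kinases that phosphorylate SR proteins, 4 of 11 were higher in SCPs by name (median -0.62) and 8 of 11 with unnamed transcripts. Those with the largest differences by name were Dyrk1a (19.2 ± 5.68 against 6.24 ± 1.20 FPKM) and the muscle-associated Srpk3 (2.06 ± 1.08 against 0.04 ± 0.07 FPKM), the latter not called without RSC2 or RSC3 (-1.47 in both). With unnamed transcripts Dyrk1a was at 23.5 ± 1.82 against 16.9 ± 0.58 FPKM, a log2 fold change of -0.45 where the named transcripts gave -1.45. Of the snRNP assembly genes, 8 of 16 were higher in SCPs (median -0.73), led by the cap-binding gene Ncbp1 and by Tgs1, which trimethylates the snRNA cap. Of the exon junction complex genes, 5 of 9 were higher in SCPs (median -0.82), led by Rnps1 (198 ± 10.3 against 75.2 ± 3.88 FPKM) and Pnn (47.6 ± 7.18 against 17.8 ± 0.42 FPKM).

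Other measures also differed between the groups. Over all genes tested, 22.4% were higher in SCPs and 18.1% in RSCs by name, and the counts below stand beside these shares. Sox10, the transcription factor that marks the Schwann cell lineage, was at 179 ± 3.17 FPKM in SCPs and 145 ± 3.21 FPKM in RSCs, and of 13 Schwann cell lineage markers tested 2 were higher in SCPs and 8 in RSCs (summed FPKM 514 to 575 in SCPs and 2339 to 2926 in RSCs). Of 30 cell cycle genes, 24 were higher in SCPs and none in RSCs, with summed FPKM of 1071 to 1384 in SCPs and 407 to 447 in RSCs. All 12 leukocyte markers tested were higher in RSCs (19.1 to 47.8 FPKM in SCPs and 2378 to 2824 FPKM in RSCs), with Cd3e listed at 0 in all SCPs. Of the fibroblast markers, 7 of 8 were higher in RSCs (645 to 1025 FPKM against 5404 to 8094 FPKM). Of the erythroid markers, 6 of 7 were higher in SCPs (31478 to 135330 FPKM against 1868 to 2474 FPKM), with Hbe1 and Hbz among those listed at 0 in all RSCs and Alas2 at 0 in all SCPs by name. Of the skeletal muscle markers, 7 of 8 were higher in SCPs and 1 in RSCs (76.0 to 306 FPKM against 28.8 to 33.2 FPKM), with Myod1 and Myf5 listed at 0 in all RSCs. Neuronal markers were higher in SCPs for 2 of 7, or 28.6%, near the share of all genes. Their summed FPKM were 38.0 to 66.4 in SCPs against 24.7 to 35.6 in RSCs, with Elavl4 and Isl1 at 0 in all RSCs. None of 8 endothelial and mural markers was called by name (97.0 to 285 FPKM against 137 to 205 FPKM). With unnamed transcripts the mural marker Rgs5, listed at 0 in all RSCs by name, was at 98.4, 79.9 and 75.3 FPKM in RSCs against 4.98, 9.99 and 5.28 FPKM in SCPs (3.51 ± 0.25, adjusted p = 4.7e-05), and Pdgfrb was higher in SCPs (-0.60 ± 0.14, adjusted p = 0.0074). By that sum the counts were 2 higher in SCPs and 11 in RSCs of 14 Schwann cell markers, 27 of 31 cell cycle genes higher in SCPs, 12 of 13 leukocyte markers higher in RSCs and 4 of 7 neuronal markers higher in SCPs. The shares over all genes were then 34.2% higher in SCPs and 23.2% in RSCs. How cell division, other cells and globin RNA bear on the difference in splicing gene levels between the groups was not tested.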

How the data were processed

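RNA-seq of 3 SCP and 3 RSC samples was deposited by the authors as 1 Cufflinks transcript table per sample, in FPKM with confidence bounds and with the coverage of each transcript as a signal. The submitters' processing notes name FastQC 0.11.2, TopHat2 2.1.0, Cufflinks 2.2.1 and the rn6 build, and the study's methods name paired-end reads of libraries made with an mRNA kit. FPKM are normalized for transcript length and for mapped fragments, so a few very abundant RNAs lower all other values. Read counts were not used here, and depth is known only relative to SCP2, from coverage per FPKM.

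FPKM of named transcripts were summed by symbol. Rows whose gene name had become a date were left out (77 per sample). An unnamed transcript was added to the symbol of the same gene identifier whose span it overlapped most. Positions are those of the deposited tables, counted from 1. limma 3.58.1 (R 4.3.3) with a variance trend was fitted to log2(FPKM + 1), RSC minus SCP, over genes averaging 1 FPKM or more, and the fit was tested on simulated data. Calls used an unadjusted p under 0.01, and all p-values are two-sided. Sums were compared by exact permutation (scipy 1.17.1). Alternatives were a pseudocount of 0.1, no filter or a mean of 5 FPKM or more, quantile and median-of-ratios scaling, no trend, a replicate block, adjusted p under 0.05, the highest transcript per gene, unnamed transcripts, listed values of 0 left out where a replicate reached 5 FPKM, and leaving out each sample.

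The 6 values are given for the 2 most abundant genes of each family, those with the extreme log2 fold changes, the 20 with p under 0.01 and the largest differences over 2-fold, and genes listed at 0 beside samples of at least 5 FPKM. Srsf3, Srsf4, Srsf11, Snrpc, Hnrnph2, Hnrnph3, Hnrnpul2, Celf2, Celf4, Mbnl2, Rgs5, Pdgfrb and the transcript shares were singled out after their values were seen. Of each other list, up to 2 genes in each direction were named, those with the largest log2 fold changes among genes with p under 0.01 by name. The genes and lists were chosen with earlier results of these data known. Promoter sequences are from RefSeq on GRCr8. Where near-identical copies share reads, how these were divided is not given in the sources used here.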

Additional observations from a re-analysis of the deposited data

How the results depend on the processing

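The count of splicing genes higher in SCPs was 35 to 41 under every alternative run on named transcripts (39 as reported) apart from adding unnamed transcripts (42), and 39 to 46 for the sum with unnamed transcripts (42 as reported). Leaving out 1 sample at a time gave 35 to 39 and 42 to 45. None was higher in RSCs under any of them, by limma. The median log2 fold change of -1.23 was -1.03 with median-of-ratios scaling, where 35 genes were called, and lay between -1.28 and -1.14 when 1 sample was left out. Among the other splicing lists the count higher in RSCs, 2 as reported, was 1 with a mean of at least 5 FPKM, 1 with the highest transcript per gene, 5 with unnamed transcripts and 4 with listed values of 0 left out, and 1 to 4 with 1 sample left out. The cause was not tested. The count higher in SCPs, 88, ran from 69 to 117.

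Signs turned in 3 genes: Hnrnpa1 (0.81) was -2.42 with values of 0 left out and -2.42 without SCP replicate 1, Hnrnpul2 (-0.21) was 0.0059 with median-of-ratios scaling, and Srsf10 (-0.48) was 0.046 without SCP replicate 1. With 1 sample left out, Hnrnpa1 ran from -2.42 to 2.49 and Srsf10 from -0.96 to 0.046. Of the other values, 34 lost and 12 gained a call, counting the lists, and 932 kept theirs. With the replicate number as a block, 35 splicing genes were called by name (39 without it) and 43 with unnamed transcripts. The labels do not say that a number marks a shared animal, batch or day, and the study's account of 3 sets of experiments does not tie numbers to sets. Deviations of same-numbered SCP and RSC samples correlated at 0.044, -0.005 and 0.026 across genes by name, where SCP2 did not correlate best with RSC2. With unnamed transcripts the correlations were 0.063, 0.034 and 0.050, each the highest of its sample, as a hint from the data.

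With 3 samples per group, no counts and a modelled split of reads among transcripts, differences smaller than about the replicate spread could not be read, and genes carried mostly by unnamed transcripts depended on how those were assigned.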
